A study of Homo sapiens with 9 samples.

Results

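The 10 genes described here are the TEAD factors TEAD1, TEAD2, TEAD3 and TEAD4, their coactivators YAP1 and WWTR1 (the gene of TAZ), and 4 genes whose RNA is commonly read as an output of the Hippo pathway, AMOTL2, LATS2, CCN1 (CYR61) and CCN2 (CTGF). They were picked by name out of the 18970 gene symbols listed in each of the 2 count tables, and all 10 were present in both. The samples were cranial neural crest cells (CNCCs) at passage 4, differentiated from the established human embryonic stem cell line H9 after both copies of SOX9 had been given an FKBP12-F36V, mNeonGreen and V5 tag. The tag lets the small molecule dTAGV-1 hand SOX9 protein to a ubiquitin ligase for degradation. All 3 groups had 4-thiouridine (4sU, 100 uM) in the medium for 2 h before harvest. The 0h group received the DMSO vehicle, and the 3h and 24h groups received 500 nM dTAGV-1, with labelling begun 1 h and 22 h after its addition. The labels put relative SOX9 at 100% in the 0h group and at 0% in the other groups. Each group had 3 samples, 1 from each of the cultures S9CC13_R6, S9CC47_R5 and S9CC47_R6, whose names give the clone of the tagged line (2 clones) and the batch of differentiation (2 batches). Untagged cells given dTAGV-1 were not analysed here, so an effect of the compound apart from SOX9 cannot be told apart from that of the depletion.

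The Hippo pathway is a kinase cascade in which STK3 and STK4 (MST kinases) act on LATS1 and LATS2, and the LATS kinases phosphorylate YAP1 and TAZ and keep them in the cytoplasm. Unphosphorylated YAP1 and TAZ enter the nucleus, where they bind TEAD factors, which supply the contact with DNA. CCN1 and CCN2 encode secreted matrix proteins and are standard target genes of these complexes, while AMOTL2 and LATS2 are targets whose products hold YAP1 and TAZ back. In neural crest, the pathway is known for roles in proliferation, migration and smooth muscle and skeletal fates. The pathway is controlled largely by phosphorylation and location of proteins, which RNA counts do not show.

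In SLAM-seq, RNA made during labelling carries 4sU, which after alkylation is read as a T>C conversion. Total reads of a gene are all its reads, T>C reads are those with a conversion and stand for RNA made within the 2 h window, and unconverted reads are the difference, mostly older RNA. Total reads per sample ran from 16955633 to 28782678 and T>C reads from 3130673 to 5475800. The T>C share of a whole library was lowest for S9CC13_R6 at 3h (15.9%) and highest for S9CC47_R6 at 24h (21.3%), and calls of the 10 genes that ended without either of these samples are named beside the result. The calls over all genes, which give the background shares, also fell without them: at 24h from 599 to 306 without the first and 359 without the second in T>C reads, and from 1751 to 424 and 927 in total reads. All 7 markers fixed for cranial neural crest reached 1 CPM (counts scaled to the same library total) in at least 3 samples, with a summed level of 3376 to 3469 CPM at 0h, 3743 to 4101 CPM at 3h and 4556 to 4943 CPM at 24h. Of 5 embryonic stem cell markers, POU5F1 and NANOG were at or near 0, but LIN28A and DPPA4 were counted, and the list summed to 350.1 to 414 CPM at 0h, 304 to 349 CPM at 3h and 281 to 306 CPM at 24h. LIN28A fell in T>C reads, by 0.53 on the log2 scale at 3h (adjusted p = 5.79e-07) and by 0.35 at 24h (adjusted p = 0.00706). Its total reads had means of 337, 289 and 255 CPM at 0h, 3h and 24h. DPPA4 did not fall, with means of 36.2, 36.9 and 40.4 CPM, so the lower sum lay in LIN28A. Chondrocyte markers summed to 31.5 to 40.6 CPM at 0h and 20.6 to 25.03 CPM at 24h. Nearly all of this sum was COL9A1 (means of 35.2 CPM at 0h and 21.4 CPM at 24h). It was the only 1 of the 4 markers to reach 1 CPM in at least 3 samples. The part of these marker changes in the results was not tested. The later rise of the cranial neural crest sum lay largely in SOX9 RNA itself (means of 764, 1343 and 1754 CPM). The other 6 crest markers summed to 2601 to 2733 CPM at 0h, 2602 to 2630 CPM at 3h and 2896 to 3157 CPM at 24h. In such bulk samples, fewer cells of a type and less RNA per cell cannot be told apart. SOX9 RNA cannot check the depletion, which acts on the protein.

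Normalized reads are counts divided by a size factor per sample. A gene was called when the DESeq2 Wald test, fitted over all genes with differentiation batch and 1 surrogate variable as terms, gave a Benjamini-Hochberg adjusted p under 0.1. Nothing in the labels says that a culture was grown more than once, so p-values measure the spread between these samples.

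At 0h, the 10 genes spanned a wide range of levels. The libraries read the 3′ end of polyadenylated RNA, so that counts do not grow with transcript length. The order of the genes also depends on the regions and strand used in counting, which are not given in the sources used here. TEAD2 was the most abundant at 316 ± 15.3 CPM of total reads (SD, n = 3 here and below). YAP1 followed at 68.5 ± 3.77 CPM, WWTR1 at 54.6 ± 1.94 CPM and TEAD1 at 42.9 ± 2.01 CPM, and the ranges of these 4 genes did not overlap. TEAD4 (23.0 ± 1.33 CPM), TEAD3 (21.0 ± 4.24 CPM), LATS2 (18.3 ± 0.774 CPM) and AMOTL2 (17.3 ± 0.923 CPM) came next, each overlapping its neighbour in the order. CCN2 stood at 3.01 ± 0.770 CPM and CCN1 at 1.32 ± 0.444 CPM, without overlap of AMOTL2 or of each other. RNA of both coactivators was thus plentiful, while the secreted readouts were near the lower limit of what could be tested.

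The T>C share of a gene is the percent of its total reads that carry a conversion, and a short-lived RNA tends to have a high one, although the number of T bases in the reads also enters it. Over the 10691 genes with a mean of at least 50 total reads at 0h, its median was 27.0% (quartiles 16.7% and 40.6%). The 4 readout genes had shares of 86.6% ± 6.23 (CCN1), 77.1% ± 12.0 (CCN2), 61.0% ± 8.56 (LATS2) and 59.8% ± 5.49 (AMOTL2). CCN1, with 28, 15 and 51 total reads in the 0h samples, did not reach that mean of 50 and is not among the genes behind the median. WWTR1 had 55.0% ± 1.60 and TEAD1 45.5% ± 4.79, both above the upper quartile. YAP1 (27.8% ± 3.40) was near the median. TEAD3 (20.6% ± 3.54) and TEAD4 (16.9% ± 3.32) were below it, and TEAD2 (12.7% to 13.3% over the 3 samples) was below the lower quartile. WWTR1, the less abundant coactivator, thus had the larger newly made part in each of the 3 cultures.

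**Figure D1:**
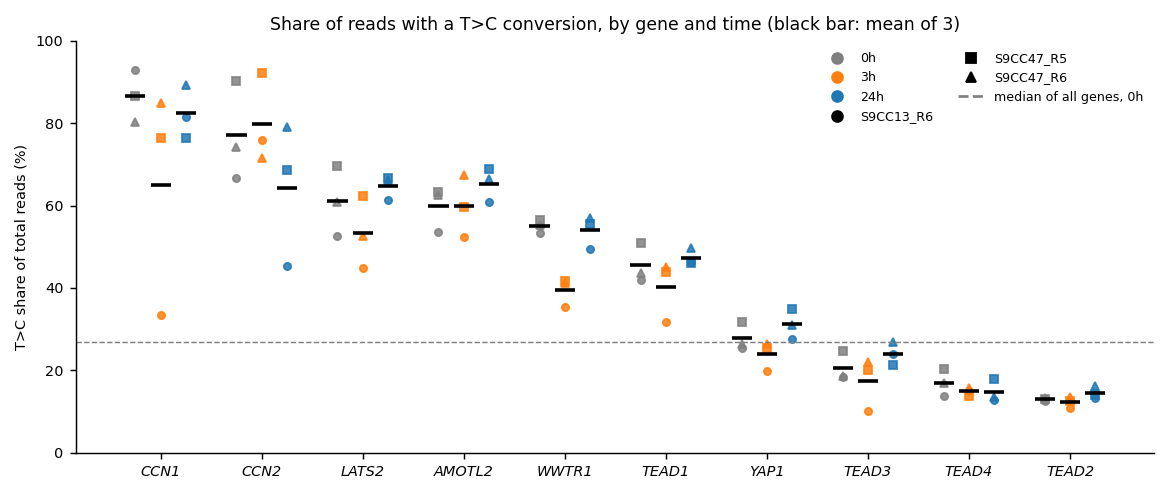
T>C share of total reads (y axis, percent) of each gene (x axis, ordered by the 0h mean) at 0h, 3h and 24h (colours) in each culture (marker shapes), with the mean of 3 samples as a black bar. The dashed line is the 0h median of 27.0% over all genes; WWTR1 dropped from 53.2-56.4% at 0h to 35.4-41.6% at 3h and was back at 49.5-57.0% at 24h.

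Stretches just upstream of a start site are shown for WWTR1, the coactivator whose RNA changed, and for CCN2 and AMOTL2, the readouts whose windows hold TEAD letters before the start. They are the 250 bases before the canonical start (RefSeq, GRCh38.p14), for WWTR1 chr3:149658026-149658275, for CCN2 chr6:131951373-131951622 and for AMOTL2 chr3:134374448-134374697, all on the minus strand and written 5′ to 3′. Capitals mark GGAATG or its other strand CATTCC, the core letters bound by TEAD factors, and ACAAAG or its other strand CTTTGT, core letters of the SOX family. The motifs do not overlap one another.
WWTR1: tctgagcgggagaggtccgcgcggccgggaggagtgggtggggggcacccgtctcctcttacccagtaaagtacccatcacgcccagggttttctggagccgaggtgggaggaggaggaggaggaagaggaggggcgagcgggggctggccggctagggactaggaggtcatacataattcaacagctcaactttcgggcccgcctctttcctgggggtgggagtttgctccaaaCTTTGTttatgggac
CCN2: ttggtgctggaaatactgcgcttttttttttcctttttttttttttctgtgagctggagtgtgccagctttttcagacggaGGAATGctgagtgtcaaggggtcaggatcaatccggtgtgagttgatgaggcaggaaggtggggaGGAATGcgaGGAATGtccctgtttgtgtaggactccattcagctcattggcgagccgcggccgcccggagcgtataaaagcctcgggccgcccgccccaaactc
AMOTL2: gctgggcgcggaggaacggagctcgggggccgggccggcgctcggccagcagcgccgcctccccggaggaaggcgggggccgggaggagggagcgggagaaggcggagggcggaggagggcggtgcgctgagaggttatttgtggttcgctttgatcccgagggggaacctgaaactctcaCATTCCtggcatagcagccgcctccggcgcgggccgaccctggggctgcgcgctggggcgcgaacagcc
In these windows the TEAD letters stood 169, 104 and 95 bases before the start of CCN2 and 69 bases before that of AMOTL2, and the SOX letters stood 15 bases before that of WWTR1. Windows reaching 250 bases before and 50 after a start were held for 7 of the 10 genes, not for TEAD1, TEAD4 or CCN1. YAP1 had the TEAD letters 162 bases before its start, LATS2 had them 9 bases after it, TEAD2 had the SOX letters 27 bases before it, and TEAD3 had neither. Of all 35116 windows of 300 bases, 14.03% held the TEAD letters and 16.07% the SOX letters on either strand, so that such matches are common and describe letters, not binding.

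WWTR1, the gene of TAZ (hg38 chr3:149517235-149736714, minus strand, 7 exons), lost newly made RNA within 3h of SOX9 depletion. Normalized T>C reads in S9CC13_R6, S9CC47_R5 and S9CC47_R6 were 669, 608 and 664 at 0h, 351, 374 and 386 at 3h, and 409, 396 and 420 at 24h. All 3 cultures were lower at both later times, and neither 3h nor 24h overlapped 0h. The log2 fold change at 3h was -0.79 (SE 0.12, adjusted p = 9.84e-09), which left 0.578 of the 0h level. That at 24h was -0.69 (SE 0.12, adjusted p = 2.63e-06), which left 0.621 of it. The 24h samples were all above the 3h samples, by 0.10 on the log2 scale (SE 0.14, adjusted p = 0.948), which was not called. By culture, the change at 3h was -0.93, -0.70 and -0.78, and at 24h -0.71, -0.62 and -0.66.

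At 3h, WWTR1 was the only one of the 10 genes called in T>C reads, where 1.79% of the 12037 genes tested were called. At 24h it was called together with TEAD3, where the background was 4.98%. Between 3h and 24h none of the 10 was called by DESeq2 (1 at an unadjusted p under 0.05, and none by edgeR), where the background was 1.14%. Leaving out single libraries kept both WWTR1 calls: the 3h value was -0.75 without S9CC13_R6 at 3h and -0.79 without S9CC47_R6 at 24h. Leaving out a whole culture gave changes at 3h between -0.91 and -0.74, but without S9CC47_R6 the call was lost (adjusted p = 1.0), as was that at 24h without S9CC47_R6 (-0.67, adjusted p = 0.646) and without S9CC13_R6 (-0.61, adjusted p = 1.0), in fits with 6 samples.

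Older WWTR1 RNA fell later. In the 3h group, older RNA is mostly RNA made before labelling began, which was 1 h after dTAGV-1 was added. Whether the turnover of WWTR1 RNA changed was not tested. Unconverted reads were 558, 512 and 546 at 0h, 494, 492 and 557 at 3h, and 427, 352 and 368 at 24h. The 3h and 0h samples overlapped, with a log2 change of -0.06 (SE 0.12, adjusted p = 0.975), while at 24h all 3 cultures were below their 0h value and the change was -0.50 (SE 0.13, adjusted p = 0.00301). From 3h to 24h the change was -0.44 (SE 0.14, adjusted p = 0.0450). The 24h change against 0h kept its call without S9CC47_R6 at 24h (-0.48, adjusted p = 0.0333), but lost it without S9CC13_R6 at 3h (-0.45, adjusted p = 0.238) and with any culture left out (-0.56 to -0.46). WWTR1 was the gene of this set called in the step from 3h to 24h, where 4.59% of genes were called, and it lost the call whenever a culture was left out (-0.55 to -0.35), without S9CC13_R6 at 3h (-0.45) and without S9CC47_R6 at 24h (-0.43).

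The test of the difference between both kinds of read puts these side by side. In 1 model with the sample and the culture by read type as terms, the T>C reads of WWTR1 changed by -0.74 more than its unconverted reads at 3h (SE 0.16, adjusted p = 0.00257), where 0.414% of 11361 genes were called in either direction and 8 genes (0.0704%) in the direction of WWTR1. At 24h against 0h that difference was -0.16 (SE 0.16, adjusted p = 1.0), with 0.0352% of genes called and none of the 9 members tested (none at an unadjusted p under 0.05, and none by edgeR), and from 3h to 24h it was 0.57 (SE 0.17, adjusted p = 0.0534), with 1.42% called. That last call was lost with any culture left out (0.50 to 0.64), without S9CC13_R6 at 3h (0.60) and without S9CC47_R6 at 24h (0.52). The T>C share carried the same numbers in another form, at 55.0% ± 1.60 at 0h, 39.4% ± 3.45 at 3h and 54.0% ± 3.99 at 24h. Without S9CC13_R6 at 3h, the library of lowest T>C share, the difference at 3h was -0.77 (adjusted p = 0.038). It lay between -0.78 and -0.70 with any 1 culture left out, and was then no longer called (adjusted p from 0.265 to 0.415).

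Total reads of WWTR1, the sum of both kinds of read, were 1217, 1145 and 1222 at 0h, 829, 863 and 947 at 3h, and 841, 768 and 817 at 24h. They changed on the log2 scale by -0.43 at 3h (SE 0.10, adjusted p = 0.000807). The 24h change was -0.59 (SE 0.10, adjusted p = 2.40e-07), and each culture was lower at each time. The 24h level was thus 0.664 of that at 0h. The call at 3h was lost without S9CC13_R6 (-0.39, adjusted p = 0.988) and without S9CC47_R6 (-0.48, adjusted p = 0.115), and that at 24h without S9CC13_R6 (-0.59, adjusted p = 0.468).

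YAP1, the other coactivator (hg38 chr11:102110447-102233424, plus strand, 9 exons), was called by DESeq2 in no read type. Its normalized T>C reads were 371, 473 and 388 at 0h, 409, 339 and 403 at 3h, and 416, 508 and 432 at 24h, with overlap of the groups at both times. The log2 change was -0.09 at 3h (95% interval -0.38 to 0.19, adjusted p = 0.998) and 0.14 at 24h (interval -0.16 to 0.43, adjusted p = 0.797). In total reads the intervals were -0.21 to 0.21 at 3h and -0.16 to 0.28 at 24h, which exclude a fall of the size measured for WWTR1 total reads at either time. As a share of the total reads of both coactivators, WWTR1 made up 44.4% ± 2.21 at 0h, 37.0% ± 4.08 at 3h and 34.3% ± 1.23 at 24h, and each culture was below its 0h share at both times. Within T>C reads it made up 61.2% ± 4.35, 49.2% ± 3.17 and 47.5% ± 3.25. The last exon of YAP1 overlaps a long noncoding RNA on the other strand, and how the counting used strand is not given in the sources used here.

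**Figure D2:**
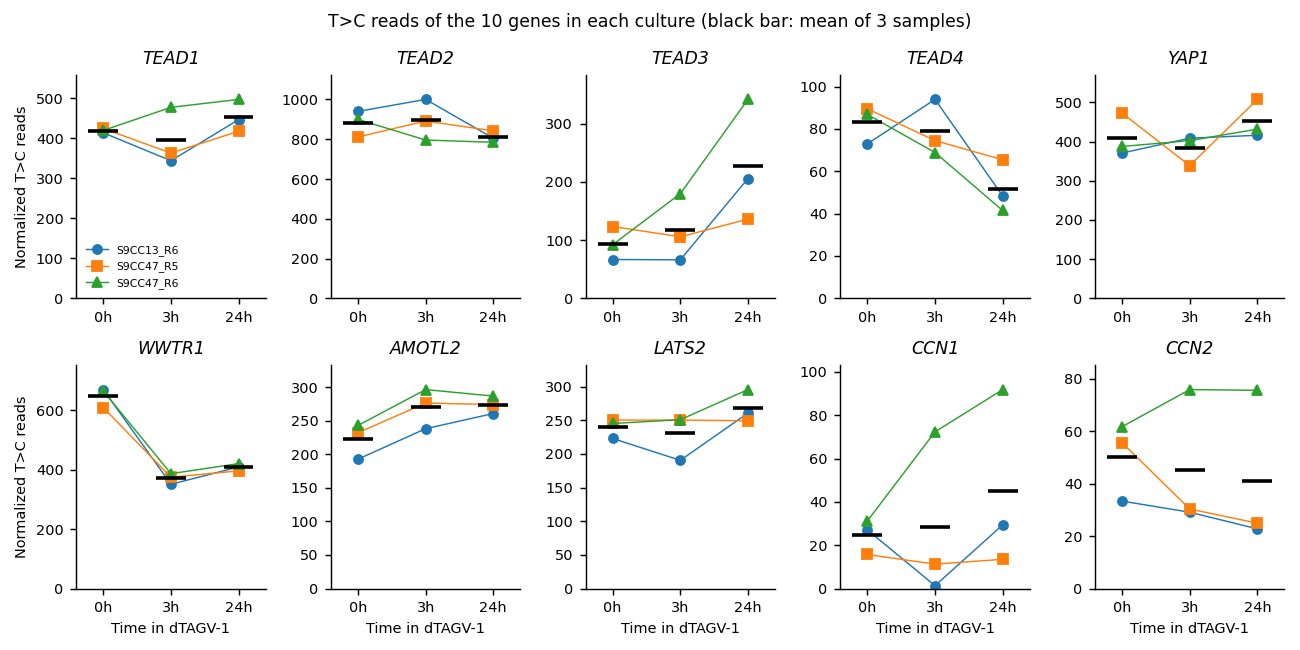
Normalized T>C reads (y axis, from 0, a scale of its own in each panel) of the 10 genes at 0h, 3h and 24h in dTAGV-1 (x axis) in each culture (coloured lines), with the mean of 3 samples as a black bar. WWTR1 fell in every culture to between 351 and 386 reads at 3h, TEAD3 spread between the cultures at 24h from 136 to 342 reads, and CCN1 and CCN2 were highest in S9CC47_R6 at each time.

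Among the TEAD factors, TEAD3 and TEAD4, the members with the lowest levels, were called in total reads, and TEAD1 and TEAD2 were not. TEAD3 (hg38 chr6:35473597-35497079, minus strand, 13 exons) had normalized total reads of 350, 530 and 501 at 0h, 552, 503 and 822 at 3h, and 873, 689 and 1404 at 24h, with the cultures in the order used above. Each culture was higher at 24h than at 0h and the groups did not overlap, but the rise differed between cultures, at log2 1.32, 0.38 and 1.49. At 3h it was higher in 2 of 3 cultures (0.66, -0.08 and 0.71). The fit put the 24h change at 0.82 (SE 0.15, adjusted p = 2.14e-06). It put the 3h change at 0.54 (SE 0.14, adjusted p = 0.0146). In total reads, 2 of the 10 genes (TEAD3 and WWTR1) were called at 3h, where 1.89% of 11710 genes were, and 3 (TEAD3, TEAD4 and WWTR1) at 24h, where 15.0% were. Between 3h and 24h none was called by DESeq2 (1 at an unadjusted p under 0.05, and none by edgeR), where 5.39% of genes were.

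In T>C reads, TEAD3 had 66.7, 123 and 92.2 normalized reads at 0h, 66.1, 106 and 180 at 3h, and 206, 136 and 342 at 24h. By 24h it had changed by 0.80 (SE 0.23, adjusted p = 0.0152), with each culture higher and no overlap. The 3h change of 0.45 (SE 0.22, adjusted p = 0.659) came from 1 culture that was higher and 2 that were lower, and was not called. Unconverted reads gave 0.52 at 3h (SE 0.15, adjusted p = 0.0486), the only call among 9 members tested where 1.1% of 11529 genes were called, and 0.81 at 24h (SE 0.16, adjusted p = 1.25e-05), 1 of 2 calls with WWTR1 where 12.1% were called. That last call was lost without S9CC13_R6 (0.45) and without its 3h sample alone (0.42, adjusted p = 0.378), and the one at 3h without either single sample (0.30 without S9CC13_R6 at 3h and 0.50 without S9CC47_R6 at 24h). Once the culture entered the fit as a replicate block, the change of TEAD3 at 3h was 0.41 in total reads (adjusted p = 0.711) and 0.42 in unconverted reads (adjusted p = 0.699), neither called. For the step to 24h from 3h, the blocked fit called it in T>C reads (1.00, adjusted p = 0.0247), total reads (0.64, adjusted p = 0.00933) and unconverted reads (0.61, adjusted p = 0.0142), against 0.35, 0.28 and 0.29 without the block, none called.

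The 24h rise of TEAD3 leaned on single samples. In T>C reads the call was lost without S9CC13_R6 (0.31, adjusted p = 1.0) and without S9CC47_R6 (0.87, adjusted p = 1.0), without the 24h sample of S9CC47_R6 alone (0.72, adjusted p = 0.203), without the 3h sample of S9CC13_R6 alone (0.70, adjusted p = 0.167) and with no surrogate variable (1.24, adjusted p = 0.210). In total reads it was lost without S9CC13_R6 (0.25, adjusted p = 1.0), without the 3h sample of that culture (0.36, adjusted p = 0.479) and with the 6 samples compared alone (0.50). The 3h call in total reads was lost without S9CC13_R6 (0.22), without S9CC47_R6 (0.26), without S9CC13_R6 at 3h (0.31), with the 6 samples compared alone (0.52, adjusted p = 0.126) and with no surrogate variable (0.41, adjusted p = 1.0).

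TEAD4 (hg38 chr12:2959330-3040676, plus strand, 13 exons) was lower at 24h. Its normalized total reads were 516, 467 and 525 at 0h, 522, 515 and 443 at 3h, and 383, 396 and 341 at 24h. All 3 cultures were lower at 24h than at 0h and at 3h, without overlap. The change against 0h was -0.36 (SE 0.13, adjusted p = 0.0420), and at 3h it was -0.07 (SE 0.12, adjusted p = 0.982). The 24h call was lost in each fit that left out a culture (-0.40 to -0.16), without S9CC47_R6 at 24h (-0.33), without S9CC13_R6 at 3h (-0.23) and with the 6 samples compared alone (-0.29). Against 3h, the 24h change was -0.30 (SE 0.14, adjusted p = 0.266), and with the culture as a replicate block it was -0.40 (adjusted p = 0.0627). T>C reads of TEAD4 were 72.9, 89.5 and 86.8 at 0h, 93.9, 74.5 and 68.8 at 3h, and 48.4, 65.4 and 41.5 at 24h, again lower in each culture without overlap, but with a change of -0.60 (SE 0.29, adjusted p = 0.324) that did not pass the test.

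TEAD1 (hg38 chr11:12674421-12944737, plus strand, 13 exons) and TEAD2 (hg38 chr19:49340595-49362457, minus strand, 13 exons) gave no call. TEAD1 had 414, 424 and 420 normalized T>C reads in the 0h samples, 344, 363 and 477 at 3h, and 447, 418 and 497 at 24h, with a change of -0.04 at 3h (95% interval -0.28 to 0.20) and 0.00 at 24h (interval -0.25 to 0.25). TEAD2 had 940, 811 and 900 in the 0h samples, 1000, 891 and 796 at 3h, and 805, 842 and 785 at 24h, with changes of -0.03 (interval -0.22 to 0.16) and -0.05 (interval -0.25 to 0.15). Its total reads in the 3 cultures were 7192, 6653 and 6890 before depletion, 7794, 6837 and 5893 at 3h, and 6221, 6436 and 5361 at 24h. Those at 24h were lower than those at 0h in each culture without overlap, at -0.11 (SE 0.07, adjusted p = 0.361). The last exon of TEAD2 overlaps CD37 on the other strand, so that reads of these genes could be mixed if strand was not used. As a share of all TEAD total reads, TEAD2 made up 78.4% ± 1.21 at 0h, between 71.6% and 79.7% at 3h and 71.5% ± 5.55 at 24h, and TEAD3 5.25% ± 1.21, 7.15% ± 2.46 and 11.8% ± 4.68. TEAD2 stayed the main TEAD transcript in all 9 samples.

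**Figure D3:**
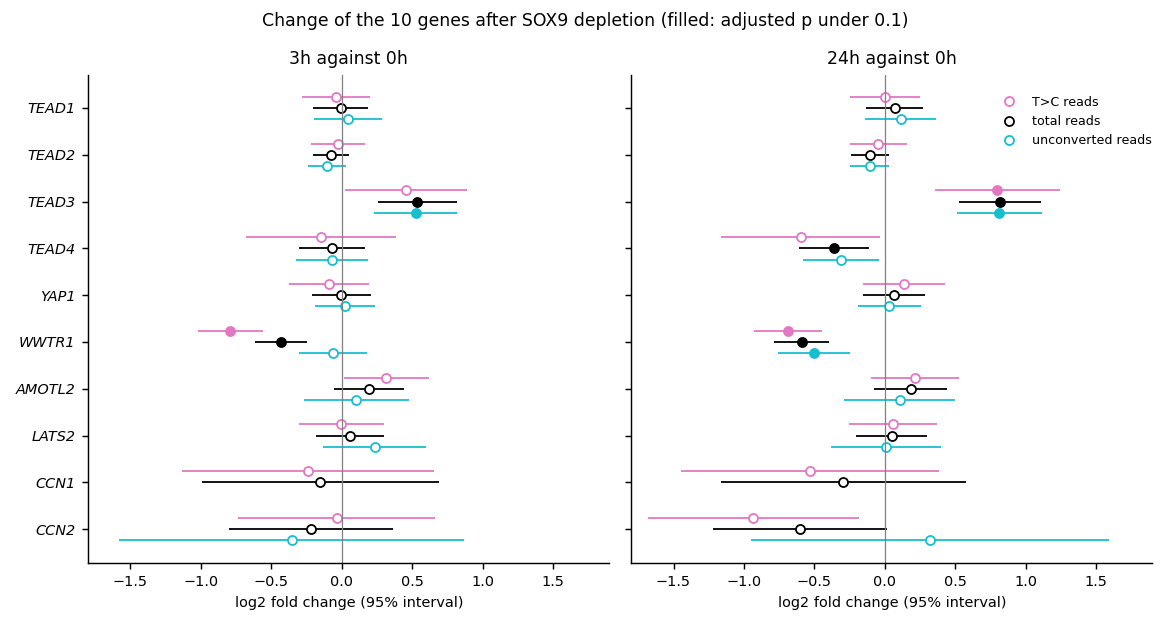
Log2 fold change (x axis) with its 95% interval (horizontal line) for each of the 10 genes (y axis) in T>C, total and unconverted reads (colours), at 3h and at 24h against 0h; filled points had an adjusted p under 0.1 in DESeq2. WWTR1 lay at -0.79 in T>C reads and at -0.06 in unconverted reads at 3h, TEAD3 near 0.8 in all 3 read types at 24h, and the intervals of CCN1 and CCN2 were the widest.

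DESeq2 called none of the 4 readout genes at any time in any read type. AMOTL2 (hg38 chr3:134355347-134375479, minus strand, 10 exons), which encodes a scaffold that holds YAP1 in the cytoplasm, had 193, 232 and 243 normalized T>C reads in the 0h samples, 238, 276 and 296 at 3h, and 261, 274 and 287 at 24h. All 3 cultures were above their own 0h value at both times, and the groups did not overlap at 24h. The 3h change of 0.32 (SE 0.15, adjusted p = 0.657) did not pass the test, nor did that of 0.21 at 24h (SE 0.16, adjusted p = 0.645). The last exon of AMOTL2 holds a ribosomal protein pseudogene on the same strand, whose reads could be counted with it.

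LATS2 (hg38 chr13:20973036-21061586, minus strand, 8 exons), the kinase that both acts on YAP1 and is induced by it, had 223, 250.3 and 245 T>C reads in the 0h samples, 190.5, 250.3 and 251 at 3h, and 261, 249 and 296 at 24h. Its change was 0.00 at 3h (95% interval -0.31 to 0.30) and 0.06 at 24h (interval -0.25 to 0.37), with overlap at both times. These intervals reach neither the fall of WWTR1 at the same time nor the 24h rise of TEAD3.

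CCN1 (hg38 chr1:85580761-85584589, plus strand, 5 exons) had 28, 15 and 51 raw total reads at 0h, 3, 17 and 73 at 3h, and 38, 17 and 139 at 24h, for the cultures in the same order. S9CC47_R6 was the highest at each time, at 1.40, 25.9 and 3.11 times the normalized total reads of S9CC13_R6, and the second of these ratios rests on 3 reads in S9CC13_R6. Its normalized T>C reads were 27.1, 15.7 and 31.2 at 0h, 1.32, 11.3 and 72.3 at 3h, and 29.4, 13.5 and 91.9 at 24h. The fit of these reads gave -0.24 at 3h (95% interval -1.14 to 0.66) and -0.53 at 24h (interval -1.45 to 0.38, adjusted p = 0.723), although 2 of 3 cultures were higher at 24h. The 24h value turned to 0.64 with no surrogate variable, 0.52 with the 6 samples compared alone and 0.37 with the culture as a replicate block, so that no direction can be given. The 3h value ran from -4.46 without S9CC47_R6 to 0.27 without S9CC13_R6, wider than the interval of the fit with all samples.

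CCN2 (hg38 chr6:131948176-131951372, minus strand, 5 exons) had 48, 51 and 109 raw total reads at 0h, 29, 38 and 91 at 3h, and 53, 35 and 129 at 24h, again with S9CC47_R6 the highest each time (1.74, 3.34 and 2.07 times S9CC13_R6 after normalization). Its normalized T>C reads were 33.3, 55.6 and 61.7 at 0h, 29.1, 30.3 and 75.9 at 3h, and 22.8, 24.9 and 75.6 at 24h, so that at 24h 2 cultures were lower and 1 higher than at 0h. The fit gave -0.04 at 3h (interval -0.74 to 0.66) and -0.93 at 24h (SE 0.38, adjusted p = 0.194). edgeR's quasi-likelihood test called the same -0.93 (adjusted p = 0.0774). The change was -0.44 with the replicate block and -0.35 with no surrogate variable. Total reads of CCN2 changed by -0.60 at 24h (interval -1.22 to 0.02, adjusted p = 0.225). By culture, in the same order, that change was 0.08, -0.74 and 0.33, so that 2 cultures were higher and 1 lower. Mean normalized total reads were 66.1 at 0h and 65.5 at 24h. Over the alternatives the fitted value ran from -1.14 to -0.09. The last exon of CCN2 overlaps the noncoding LINC01013 on the other strand.

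The spread between cultures differed among the genes. At 24h, normalized total reads in S9CC47_R6 over those in S9CC47_R5, the same clone in another differentiation batch, were 6.01 for CCN1, 2.71 for CCN2 and 2.04 for TEAD3, against 1.23 for LATS2. These are ratios of single samples, with no test.

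Other genes of the pathway were read from a list of 27 upstream kinases, scaffolds and cofactors, of which 25 were tested in T>C reads; VGLL1 and VGLL2, TEAD cofactors, had no read in any sample. None was called by DESeq2 at 3h (4 at an unadjusted p under 0.05, and none by edgeR), and the list's median change was -0.01 beside -0.01 over all genes. At 24h 3 of the 25 were called, where 4.98% of all genes were called in either direction. All 3 were lower, where 2.59% of all genes were called lower. The median was 0.08 beside 0.00 over all genes. WWC1 (KIBRA), a scaffold that activates the LATS kinases, had 32.2 ± 12.2 normalized T>C reads at 0h but 9.76 ± 1.07 by 24h (log2 change -1.50, SE 0.51, adjusted p = 0.0783). AMOT, an angiomotin that binds YAP1, went from 566 ± 65.3 to 376 ± 38.4 (-0.53, SE 0.12, adjusted p = 0.000725). Its paralogue AMOTL1 went from 1045 ± 26.4 to 815 ± 27.6 (-0.37, SE 0.10, adjusted p = 0.0112). So 2 of the 3 angiomotins fell at 24h, while the third, AMOTL2, had a change of 0.21 that was not called. Each of these 3 calls was lost with any culture left out, those of WWC1 (-1.81 to -0.74) and AMOTL1 (-0.39 to -0.31) also without S9CC13_R6 at 3h, and that of WWC1 without S9CC47_R6 at 24h. In total reads at 24h, 4 of 25 were called, where 15.0% of all genes were, a share near that background. The same 3 genes were lower, WWC1 by -1.33, AMOT by -0.48 and AMOTL1 by -0.29, and MOB1A, an adaptor of the LATS kinases named here after its value was seen, was higher (0.34, adjusted p = 0.0511). The call of MOB1A was lost in 7 of 12 alternatives, among them any culture or either of the 2 single samples left out. That of AMOTL1 was lost with any culture or S9CC13_R6 at 3h left out, and those of WWC1 and AMOT without S9CC13_R6.

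A list of 17 other YAP, TAZ and TEAD target genes gave no call in newly made RNA. Of 14 tested in T>C reads, none was called by DESeq2 at 3h (none at an unadjusted p under 0.05, and none by edgeR) or at 24h (1 at an unadjusted p under 0.05, and 2 by edgeR). The 2 that edgeR called were ANKRD1 (-1.36, adjusted p = 0.0236), which encodes a muscle ankyrin repeat protein, and DOCK5 (-1.10, adjusted p = 0.0542), a guanine nucleotide exchange factor, both lower and named after their values were seen. The median change was -0.04 at 3h and 0.09 at 24h. In total reads at 24h, 2 of 13 tested were called, where 15.0% of all genes were called in either direction, a share near that background. Both were higher, where 7.11% of all genes were called higher. Both are named here after their values were seen: RBMS3, an RNA-binding protein gene, changed by 0.74 (SE 0.14, adjusted p = 1.14e-05), and GADD45A, a stress response gene, by 0.29 (SE 0.11, adjusted p = 0.0772). Without S9CC13_R6 at 3h neither was called (0.52 and 0.30), and GADD45A was not called with any culture left out or with the replicate block (0.29, adjusted p = 0.113). The call of GADD45A was lost in 9 of 12 alternatives. The call of RBMS3 was also lost in 1 of the fits that left out a culture, and its value ran from 0.27 to 0.92 over the alternatives.

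**Figure D4:**
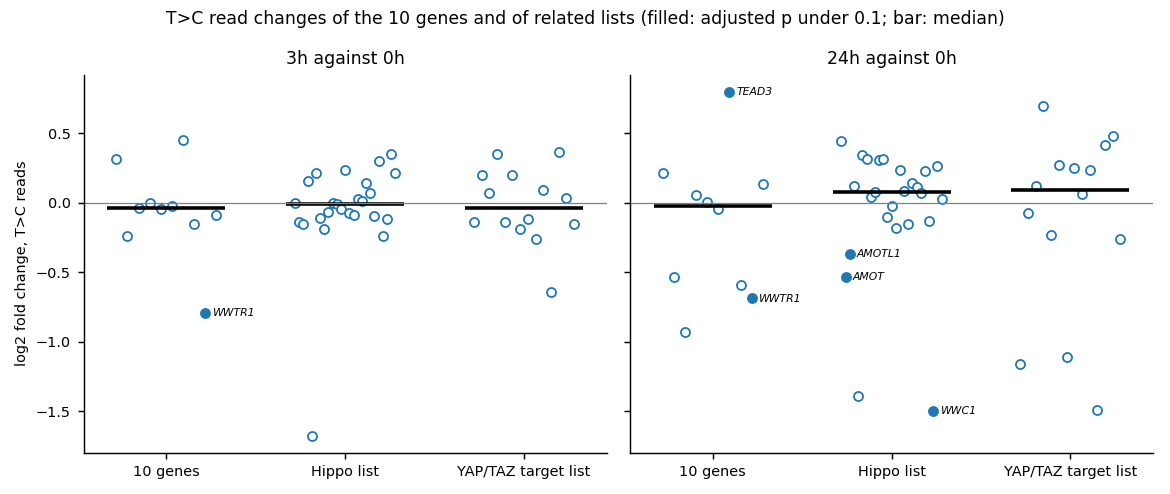
Log2 fold change in T>C reads (y axis) of the 10 genes, the Hippo list (25 tested) and the YAP/TAZ target list (14 tested), at 3h and at 24h against 0h; each point is a gene, filled at an adjusted p under 0.1, and the bar is the group's median. At 3h WWTR1 was the only filled point, and at 24h TEAD3 was filled above 0, WWTR1, WWC1, AMOT and AMOTL1 were filled below it, and no target gene was filled.

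CCN1 and CCN2 also answer to serum response factor, and a list of 24 immediate-early and serum response factor target genes was read for that reason. Of 21 tested in T>C reads, 3 were called at 3h, where 1.79% of all genes were. JUNB rose by 1.23 (SE 0.32, adjusted p = 0.0139) and JUN by 0.71 (SE 0.19, adjusted p = 0.0129), both AP-1 factors, and IER3, an immediate-early survival gene, fell by 0.90 (SE 0.11, adjusted p = 1.09e-13). At 24h 7 were called, where 4.98% of all genes were, 4 higher and 3 lower, with JUN at 1.68 (SE 0.19), the factor EGR1 higher and TAGLN, a smooth muscle actin-binding protein, at -1.34 (SE 0.44, adjusted p = 0.0617). With a culture left out, the 24h call of JUN was kept each time, those of JUNB and JUN at 3h and of TAGLN at 24h were lost each time (0.88 to 1.41, 0.20 to 0.88 and -1.48 to -1.16), that of EGR1 was lost without S9CC13_R6 (0.63) and without S9CC47_R6 (0.90), and that of IER3 was lost without S9CC47_R6 (-0.67). TAGLN was also not called with the replicate block (-0.90, adjusted p = 0.242), and its call was lost in 9 of 13 alternatives. The list's median was 0.11 at 3h and 0.13 at 24h. The list held changes in both directions. In total reads at 24h, 10 of 19 tested were called, 6 higher and 4 lower, where 15.0% of all genes were called. Whether serum response factor acted on CCN1 or CCN2 was not tested.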

How the data were processed

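The authors deposited 2 tables of raw counts per gene symbol, of total reads and of reads with a T>C conversion, with 9 columns each. According to the methods, QuantSeq 3′ reads were trimmed and were mapped and counted with slamdunk; the submitters' processing notes name hg38. The regions counted, the use of strand and the conversion threshold are not given in the sources used here, and molecular identifiers were not stated. T>C reads include sequencing errors and variants, since no unlabelled library was analysed here, and Wilson intervals would cover counting error only. Samples were grouped by treatment time from the titles.

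Protein-coding genes (GENCODE 44 on hg38, 18769 of 18970 symbols) at 1 CPM or more in at least 3 samples were tested: 12037 for T>C reads, 11710 for total reads, 11529 for unconverted reads and 11361 for the comparison of read types. DESeq2 1.42.0 (R 4.3.3) fitted raw counts of all 9 samples with batch, 1 surrogate variable (svaseq, sva 3.50.0, time protected) and time, with independent filtering off and calls at a Benjamini-Hochberg adjusted p under 0.1. Read types were compared by the interaction of read type and time. CCN1 did not reach the filter in unconverted reads. The scripts were tested on simulated data. Cultures pair the samples, since the titles name the same clone and batch at each time; deviations from group means correlated at 0.175 on average over 9 pairs in T>C reads (-0.129 to 0.570) and 0.269 in total reads.

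The members and the lists were chosen with earlier results of these data known. Each member was named; from the Hippo and target lists, each gene called in T>C reads, at most 3 rises and 3 falls per time; from the serum response list, at most 3 called genes per time; and for each readout, the 2 genes of most similar pattern. Alternatives were edgeR 4.0.16 with TMM, TMM factors in DESeq2, size factors from total reads, no filter, no surrogate variable, the replicate block, only the 6 samples compared, an adjusted p under 0.05 and each culture left out; the leaving out of S9CC13_R6 at 3h and of S9CC47_R6 at 24h was chosen after seeing the data.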

Additional observations from a re-analysis of the deposited data

Results flagged for a closer look

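Both flagged values concern WWTR1, whose change differed between the 3h and 24h times. Unconverted reads changed by -0.44 on the log2 scale from 3h to 24h (adjusted p = 0.0450, DESeq2), after a change of -0.06 from 0h to 3h. The T>C reads changed by 0.57 more than the unconverted reads from 3h to 24h (adjusted p = 0.0534), after -0.74 from 0h to 3h. Neither the -0.44 nor the 0.57 was called in any fit that left out a culture, S9CC13_R6 at 3h or S9CC47_R6 at 24h; with a culture left out they lay between -0.55 and -0.35 and between 0.50 and 0.64.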

How the results depend on the processing

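The values of the 10 genes and the number of them called were recomputed under up to 13 alternatives in T>C reads, 12 in total reads, 7 for T>C against unconverted reads and 6 in unconverted reads, with fewer for CCN1 and CCN2 where a fit gave no value. Of the values for these genes, 926 kept their direction and side of the threshold, 100 more changed sign while not called and within 1 SE of 0, 50 lost the call, 6 gained it and 10 reversed. In T>C reads the number called was 0 to 1 with a culture left out at 3h, against 1 with all. At 24h it was 2 with all, 1 with no surrogate variable, 1 without S9CC13_R6 at 3h, 1 without S9CC47_R6 at 24h and 0 to 2 with a culture left out. From 3h to 24h it was 0, and 1 with the replicate block. In total reads it was 2 at 3h, but 1 with no surrogate variable, with the 6 samples alone, with the replicate block or without S9CC13_R6 at 3h, and 0 to 2 with a culture left out. At 24h it was 3, but 1 with the 6 samples alone or without S9CC13_R6 at 3h, and 0 to 2 with a culture left out. From 3h to 24h it was 0, and 1 with no surrogate variable and 2 with the replicate block. In unconverted reads it was 1 at 3h, but 0 with the replicate block, without S9CC13_R6 at 3h or without S9CC47_R6 at 24h, and 0 to 1 with a culture left out. At 24h it was 2, with 0 without S9CC13_R6 at 3h and 0 to 1 with a culture left out. From 3h to 24h it was 1, with 2 under the replicate block, 0 without either single library and 0 with a culture left out. For T>C against unconverted reads it was 0 with any culture left out, against 1 at 3h and 1 from 3h to 24h, and in the latter step also 0 without either single library. The replicate block changed the calls of TEAD3 and TEAD4 given above and no other call of the 10 genes. The named list genes were recomputed for the comparisons in which they are named: 155 values kept their side of the threshold, 58 lost the call, 2 gained it and none reversed.

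Values that reversed were CCN1 in T>C reads at 24h (-0.53, with 0.64 without the surrogate variable, 0.52 with the 6 samples and 0.37 with the block), CCN2 in total reads from 3h to 24h (-0.38, with 0.22, 0.29 with the block and 0.51 without S9CC47_R6), TEAD3 in T>C reads at 3h (0.45, with -0.43 without S9CC47_R6), and TEAD2 in total reads at 24h without S9CC13_R6 (0.000825), and at 3h without S9CC47_R6 in total reads (0.0736) and unconverted reads (0.0170). The cause was not tested. A fit without a culture has 6 samples for 3 times, and that of total reads without S9CC47_R6 was run without the surrogate variable. Size factors from total reads put the median of all genes in T>C reads at -0.083 at 3h, against -0.011 otherwise. The depth limits CCN1, with 3 to 139 total reads per sample, and CCN2, with 29 to 129. Over all genes, T>C calls at 24h were 599, and 968 by edgeR; T>C calls from 3h to 24h were 137, and 530 with the replicate block, 373 with no surrogate variable, 267 by edgeR and 86 with the 6 samples. T>C calls at 3h were 216 and, with the 6 samples, 135. Total read calls were 1751 at 24h and 371 with the 6 samples; 631 from 3h to 24h, with 1544 under the block and 368 with the 6 samples; and 221 at 3h, with 118 with no surrogate variable and 141 under the block. Unconverted calls from 3h to 24h were 529, and 1166 under the block. For T>C against unconverted reads they were 4 at 24h, 21 by edgeR and 2 with no block, and 161 from 3h to 24h, 383 by edgeR and 104 with no block. With a culture left out, T>C calls were 5 to 91 at 3h and 54 to 251 at 24h, and total read calls 64 to 154 and 154 to 719.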

Other observations

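The genes whose T>C reads followed each readout most closely were found by the Pearson correlation of log2 normalized T>C reads, with each culture centred on its own mean, over 9 samples and up to 8676 genes. The points share libraries and cultures and the highest values over all genes were taken, so they are a description with no test. AMOTL2 ran with TNFRSF1A (r = 0.981), a receptor for tumour necrosis factor, and TWIST2 (r = 0.969), a mesenchymal transcription factor. LATS2 ran with RPL7 (r = 0.978), a ribosomal protein gene, and BCL7B (r = 0.977). CCN1 ran with UBP1 (r = 0.985) and DOCK4 (r = 0.983), and CCN2 with PGM1 (r = 0.948), a glucose metabolism enzyme, and FN3KRP (r = 0.937). The pattern of CCN1 leans on S9CC13_R6 at 3h, where it had 1 T>C read. No gene was named for more than 1 readout.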
